A study of Populus trichocarpa with 12 samples.

Results

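The comparison of severe with mild drought set 4 libraries of Populus trichocarpa (black cottonwood) taken after 7 days without watering against 4 taken after 5 days. All genes of the deposited table were members, 41335 in number, of which 26943 passed the filter on low counts and were tested. The tissue was the differentiating xylem of the stem, that is, wood still forming under the bark, from trees kept in a greenhouse. On day 5, called mild drought, soil held 33% and xylem 75.3% water, and on day 7, called severe drought, 29% and 74.3%. The day 0 libraries, 4 from fully watered plants whose soil held 74% and whose xylem held 80.6% water, entered the fit and are quoted as a reference level. No genotype, transgene or plant age per library was used here. No watered plants of days 5 and 7 were analysed here, so drought and day of harvest cannot be told apart. The labels do not say whether replicates were separate trees, so p-values measure the spread between these libraries.

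Wood cells lay down a secondary wall made of cellulose, xylan and lignin. Cellulose is spun at the plasma membrane by complexes of secondary wall cellulose synthases (CesA), fed with UDP-glucose that sucrose synthase can supply. Xylan is built in the Golgi, and lignin is polymerised in the wall from monolignols, whose synthesis starts with phenylalanine ammonia-lyase (PAL). In poplar, NAC factors of the fibre type (WND) and of the vessel type (VND) switch this programme on, partly through MYB factors of a second tier. The table names genes by identifier only. For 50 wood genes, 34 of synthesis and 16 regulators, published designations were used as recalled and were not checked against the publications. Neither the deposited data nor the reference used here gives them. The names below stand for these identifiers.

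Total counts were 12.9 to 19.2 M in the day 5 libraries and 12.95 to 17.7 M in the day 7 libraries. Levels are given as CPM, counts per 1 M counts after TMM scaling. Of the 34 synthesis genes, those of the cellulose, xylan and monolignol lists serve as the xylem markers here. All 34 passed the filter. It ran over all 12 libraries, so a gene expressed on day 0 alone can pass. Passing therefore does not show that a marker was present on days 5 and 7. GAUT12-2, for example, had 0.736 to 2.63 CPM on day 7. Markers of other cell types were not analysed here, because no table used here pairs identifiers with names. In bulk tissue, fewer cells of a type and less RNA per cell cannot be told apart. On day 7, replicates 1 and 4 were the closest pair, with a mean absolute log2 difference of 0.349. Replicate 2 differed most from these (0.737 and 0.777). Replicate 3 differed from them by 0.580 and 0.637 and was nearest to replicate 2 (0.560). Day 7 replicate 2 was often the highest library of its day for wood genes. Where leaving out replicate 2 changed a call or moved a value by more than 1.5 times, both values are given.

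Most genes that make the wood wall were called lower in severe than in mild drought, and none of the 49 tested wood genes was called higher. Of the 34 synthesis genes 27 fell, and every one of the 34 had a negative log2 fold change (day 7 minus day 5), with a median of -1.72, or 3.30-fold lower. Over all tested genes 42.1% differed (edgeR, adjusted p under 0.05), 22.3% higher and 19.9% lower on day 7, and the median log2 fold change was 0.0060. Among the 16 regulators 15 were tested and 4 fell, a share close to the 19.9% over all genes, with a median of -0.92. Without day 7 replicate 2, 30 of the 34 synthesis genes and 5 of the 15 regulators were lower, against 17.6% of all genes, with medians of -2.25 and -1.57. Leaving out day 5 replicate 1, 3 or 4 or day 7 replicate 3 gave 28, 27, 30 and 27 wood genes lower, with 17.2%, 16.3%, 16.6% and 15.1% of all genes lower. With upper-quartile scaling (19.7% of all genes lower) or a filter of 1 CPM in 4 libraries (20.2%) 31 were lower.

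**Figure D1:**
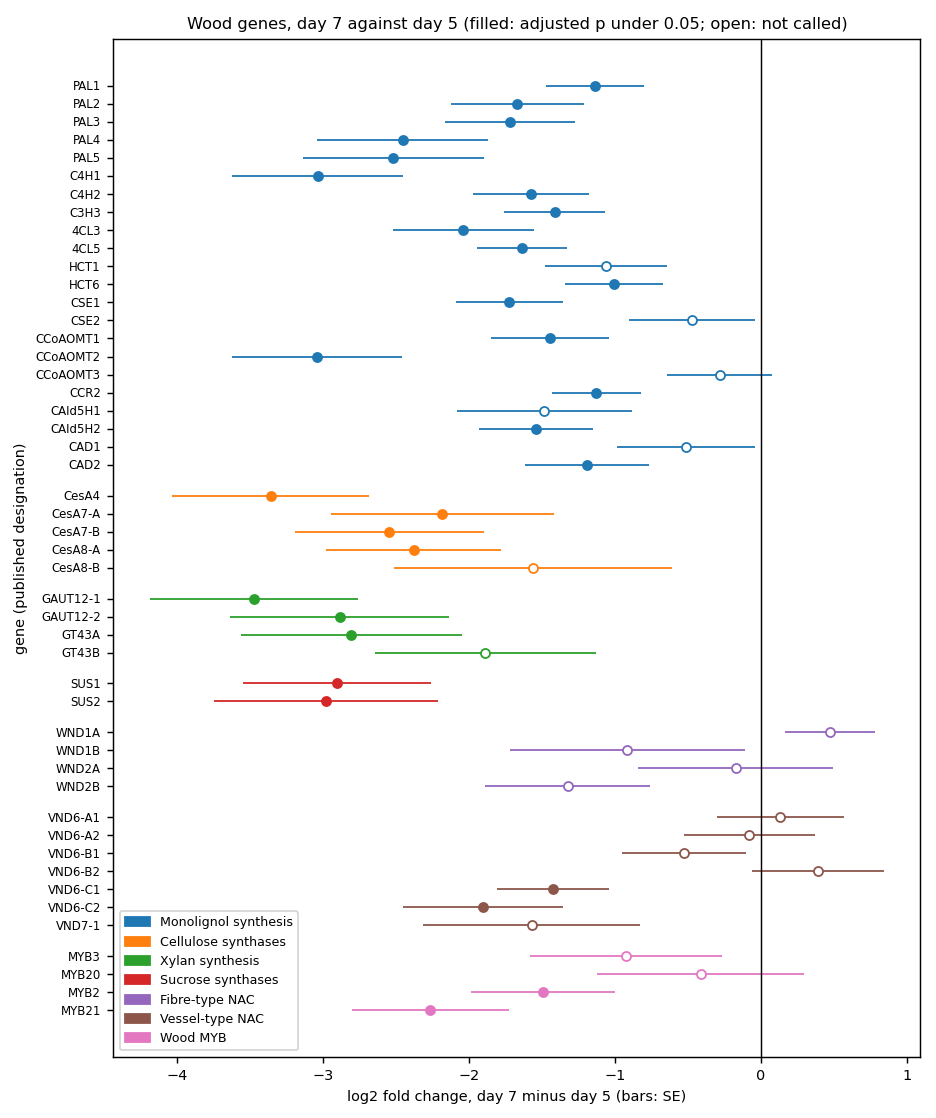
Log2 fold change of the tested wood genes except 1 synthesis gene, day 7 minus day 5, with standard errors as bars and 1 row per gene. Filled points passed the edgeR test at an adjusted p under 0.05 and open points did not; all synthesis genes shown lie left of 0, and 3 of 15 regulators lie right of it, none of them called.

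The share of each library held by the 34 synthesis genes shows the same order. These genes held 0.812%, 1.16%, 1.24% and 0.620% of all counts in day 5 replicates 1 to 4 and 0.219%, 0.503%, 0.190% and 0.256% in day 7 replicates 1 to 4. No day 7 library reached the lowest day 5 library, and replicate 2 was the highest of day 7. The mean share was 3.28 times as large on day 5 as on day 7. By group of genes, this ratio was 2.77 for the monolignol genes, 5.08 for the cellulose synthases, 8.20 for the sucrose synthases and 8.67 for the xylan genes, with no test between groups. Without day 7 replicate 2 it was 3.43, 13.4, 12.1 and 15.7 for the same groups, so that the order of the last 3 depends on that library.

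Monolignol genes were lower in 18 of 23 cases. All 18 that were called also kept their 4 day 7 libraries below the 4 day 5 libraries, as did 18.6% of all tested genes (39.4% did not overlap in either direction). Over all 23 genes the log2 fold changes lay between -3.04 and -0.28, with a median of -1.54, or 2.91-fold lower. Each of the 5 PAL genes, for the entry enzyme, was lower, by -1.14 (PAL1) to -2.52 (PAL5) on the log2 scale. The call for PAL1 was lost without day 7 replicate 3 (edgeR adjusted p = 0.0515), and without day 7 replicate 2 PAL4 changed by -3.11 and PAL5 by -3.29. PAL4 and PAL5 lie next to each other by identifier and kept a log2 ratio of 0.84 to 1.18 in the 8 libraries, so shared reads are not excluded for this pair. Both genes for 4-coumarate-CoA ligase (4CL), both for cinnamate 4-hydroxylase (C4H) and the single genes for coumarate 3-hydroxylase and cinnamoyl-CoA reductase (CCR) were lower too. Family medians ran from -2.31 for C4H and -1.84 for 4CL to -1.13 for CCR, -1.04 for hydroxycinnamoyltransferase (HCT) and -0.85 for cinnamyl alcohol dehydrogenase (CAD), with no test between families. In the HCT and CAD families the more abundant gene, HCT1 or CAD1, was not called in the main fit, so a fall at every step is not shown.

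The monolignol genes with the smallest adjusted p were 4CL5, CCoAOMT2, C4H1 and CSE1. 4CL5 (Potri.003G188500), a ligase that activates hydroxycinnamic acids with CoA, stood at 131, 121, 62.5 and 103 CPM on day 5 and at 32.9, 47.9, 20.8 and 32.4 CPM on day 7. The days did not overlap, and the log2 fold change was -1.64 ± 0.31 (SE; edgeR adjusted p = 0.00182). CCoAOMT2 (Potri.001G304800), a caffeoyl-CoA methyltransferase on the way to guaiacyl and syringyl lignin, was at 612, 709, 983 and 669.8 CPM on day 5. On day 7 it was at 86.5, 100.5, 20.7 and 153 CPM. Every day 7 library was far below every day 5 library, with replicate 3 lowest. This gene fell 8.25-fold (log2 fold change -3.04 ± 0.58 SE; edgeR adjusted p = 0.00207). Its mean on day 0 was 1089 CPM ± 692 (SD, n = 4), against 744 ± 165 on day 5 and 90.1 ± 54.4 on day 7.

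C4H1 (Potri.013G157900), one of the cytochrome P450 enzymes that hydroxylate cinnamic acid, went from 175, 286, 280.4 and 104 CPM on day 5 to 15.4, 53.5, 19.3 and 14.7 CPM on day 7. Day 7 replicate 2 was the highest library of its day, yet below all of day 5. The log2 fold change was -3.04 ± 0.59 (SE; edgeR adjusted p = 0.00215), and -3.67 without that replicate. CSE1 (Potri.003G059200), for caffeoyl shikimate esterase, went from 86.5, 102, 153 and 88.2 CPM to 33.5, 33.2, 25.02 and 38.4 CPM. Here replicate 2 did not stand out, and the log2 fold change was -1.73 ± 0.37 (SE; edgeR adjusted p = 0.00365).

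The 5 monolignol genes that did not pass the test, named after their values were seen, were HCT1, CSE2, CCoAOMT3, CAld5H1 and CAD1. HCT1 had a log2 fold change of -1.06 (edgeR adjusted p = 0.0588; 0.00481 without day 7 replicate 2), and CAld5H1, a ferulate 5-hydroxylase of the syringyl branch, one of -1.49 (edgeR adjusted p = 0.0656; 0.0409 without that replicate and 0.0333 without day 5 replicate 4). CAD1, for the last reductive step, was at 763, 1353, 882 and 399.6 CPM on day 5 and at 354, 1273, 463 and 291 CPM on day 7. On day 7 replicate 2 was near the highest day 5 library, replicate 3 lay just inside the day 5 range, and the other 2 lay below it. Its log2 fold change was -0.51 (edgeR adjusted p = 0.405), and -1.19 without day 7 replicate 2 (edgeR adjusted p = 0.0269). CSE2 (-0.47) and CCoAOMT3 (-0.28) had the smallest changes of the list. CCoAOMT3 was at 176, 230.2, 195 and 93.4 CPM on day 5 and at 146, 164, 90.3 and 170.4 CPM on day 7, so that its days overlapped, although 3 of the 4 day 5 libraries lay above all of day 7.

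CAD2 (Potri.016G078300), also named after its values were seen, differed from the other monolignol genes in its day 0 level. It had 5.00 CPM ± 1.36 (SD, n = 4) on day 0. On day 5 it was at 102, 96.3, 177 and 125 CPM, and on day 7 at 88.3, 21.1, 28.4 and 80.5 CPM. Its fall between days 5 and 7 (log2 fold change -1.20 ± 0.43 SE; edgeR adjusted p = 0.0411) ended above the day 0 mean in every library. The call was lost without day 5 replicate 1 (adjusted p = 0.0541), 3 (0.110) or 4 (0.0717), without day 7 replicate 2 (0.0753) or 3 (0.107), and with the 8 drought libraries alone (0.0758). Replicate 2, the highest day 7 library for many wood genes, was the lowest for CAD2.

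Cellulose synthase genes of the secondary wall fell in 4 of 5 cases, with a median log2 fold change of -2.38, or 5.21-fold lower (-3.63 and all 5 lower without day 7 replicate 2). CesA4 (Potri.002G257900) was at 367, 435, 592 and 148 CPM on day 5 and at 27.8, 84.9, 17.97 and 19.4 CPM on day 7. The days did not overlap, and replicate 2 was the highest of day 7. CesA4 fell 10.3-fold (log2 fold change -3.36 ± 0.67 SE; edgeR adjusted p = 0.00256), and by -4.14 on the log2 scale without day 7 replicate 2. CesA8-A (Potri.011G069600) went from 44.2, 59.8, 69.9 and 39.3 CPM to 6.38, 23.2, 4.78 and 6.62 CPM, again without overlap. Its log2 fold change was -2.38 ± 0.60 (SE; edgeR adjusted p = 0.00878), or -3.16 without that replicate.

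For the remaining cellulose synthases day 7 replicate 2 lay among the day 5 libraries. CesA7-B (Potri.018G103900) was at 176, 258, 315 and 89.1 CPM on day 5 and at 18.6, 93.0, 16.3 and 15.5 CPM on day 7. Its fall amounted to -2.55 ± 0.65 (SE) on the log2 scale (edgeR adjusted p = 0.00904), or -3.63 without replicate 2. CesA7-A (Potri.006G181900) was at 381, 650.0, 474 and 149 CPM on day 5 and at 40.1, 269, 23.4 and 31.3 CPM on day 7. Only replicate 2 of day 7 exceeded the lowest day 5 library. CesA7-A passed the test narrowly (log2 fold change -2.18 ± 0.77 SE; edgeR adjusted p = 0.0391). The call was lost without day 5 replicate 1 (adjusted p = 0.0598), 2 (0.0884) or 3 (0.0713), and without day 7 replicate 1 (0.0900), 3 (0.0870) or 4 (0.0810). It was also lost in a fit of the 8 libraries alone (0.0766), and without day 7 replicate 2 the log2 fold change was -3.70 (edgeR adjusted p = 0.000786).

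CesA8-B (Potri.004G059600) was the 1 cellulose synthase not called. It was at 262, 517, 480.2 and 78.7 CPM on day 5 and at 10.1, 350.0, 57.8 and 34.2 CPM on day 7. Replicate 2 of day 7 was above 2 of the 4 day 5 libraries, and the other 3 were below all of them. The log2 fold change was -1.57 ± 0.95 SE (edgeR adjusted p = 0.204), and -3.28 without day 7 replicate 2 (edgeR adjusted p = 0.0110). With all libraries kept and the replicate number as a block it was -2.34 and was called (edgeR adjusted p = 0.0223). DESeq2 (adjusted p = 0.129) and limma-voom (adjusted p = 0.0743) did not call CesA8-B.

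**Figure D2:**
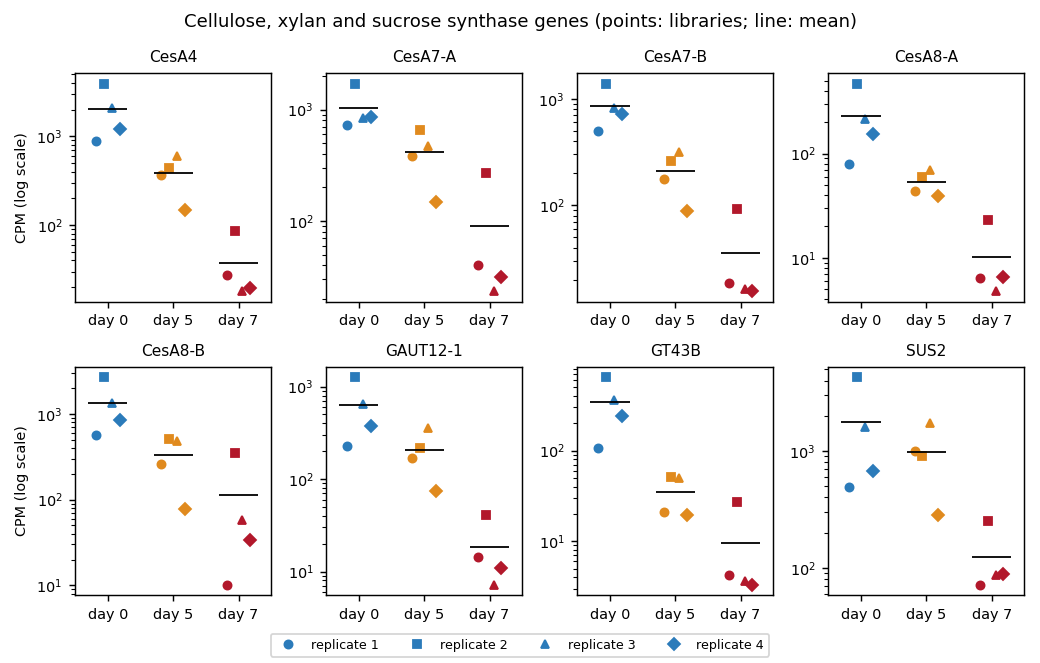
CPM on a log scale in each library of days 0, 5 and 7 for the 5 cellulose synthase genes, 2 xylan genes and 1 sucrose synthase gene, with replicates as symbols and the day's mean as a line. Day 7 replicate 2 (square) is the highest day 7 library in all 8 panels, at 350.0 CPM for CesA8-B against 10.1 to 57.8 CPM in the others.

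Of the 4 xylan genes 3 fell, with a median of -2.85 on the log2 scale. GAUT12-1 (Potri.001G416800), a glycosyltransferase gene needed for normal xylan in Arabidopsis, was at 168, 215, 357 and 75.1 CPM on day 5 and at 14.5, 40.7, 7.18 and 10.98 CPM on day 7. The days did not overlap. With 11.1-fold (log2 fold change -3.47 ± 0.71 SE; edgeR adjusted p = 0.00292; -4.22 without day 7 replicate 2) this was the largest fall among the 49 tested wood genes. Its copy GAUT12-2 (Potri.011G132600) went from 8.01, 8.70, 21.4 and 3.00 CPM to 1.28, 2.63, 0.736 and 0.968 CPM (log2 fold change -2.89 ± 0.75 SE; edgeR adjusted p = 0.0102). It was not called by limma-voom (adjusted p = 0.0928) and changed by -2.25 without day 5 replicate 3.

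The GT43 genes encode xylan backbone proteins. GT43A (Potri.006G131000) went from 12.3, 32.7, 65.0 and 8.23 CPM on day 5 to 2.07, 8.12, 4.48 and 2.18 CPM on day 7. The highest day 7 library lay just under the lowest day 5 library. Its log2 fold change was -2.81 ± 0.76 (SE; edgeR adjusted p = 0.0121), and -2.08 without day 5 replicate 3. GT43B (Potri.016G086400) went from 21.0, 51.3, 49.5 and 19.3 CPM to 4.23, 27.0, 3.68 and 3.31 CPM. Replicate 2 again lay among the day 5 libraries, and the log2 fold change of -1.89 ± 0.76 (SE) was not called (edgeR adjusted p = 0.0641), but was -3.23 without it (edgeR adjusted p = 0.00292). With all libraries kept, GT43B was called lower by DESeq2 (adjusted p = 0.0215) and limma-voom (adjusted p = 0.0203). It was also called by edgeR with the replicate number as a block (adjusted p = 0.00470).

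Both sucrose synthase genes fell. SUS2 (Potri.006G136700) was at 994, 908, 1738 and 283 CPM on day 5 and at 71.4, 249.9, 86.5 and 89.0 CPM on day 7, which is 7.90-fold lower (log2 fold change -2.98 ± 0.77 SE; edgeR adjusted p = 0.00984). SUS1 (Potri.018G063500) was at 34.4, 27.3, 87.0 and 26.1 CPM and then at 8.38, 5.25, 2.58 and 7.18 CPM, or 7.49-fold lower (log2 fold change -2.91 ± 0.65 SE; edgeR adjusted p = 0.00452). Neither overlapped between days. Day 7 replicate 2 was the highest library of its day for SUS2 but not for SUS1; without it SUS2 changed by -3.57.

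The fibre-type NAC genes, which switch on wall thickening in fibres, did not pass the test between days 5 and 7. WND1A (Potri.011G153300) was at 33.99, 50.5, 50.1 and 18.99 CPM on day 5 and at 58.6, 70.6, 48.4 and 36.2 CPM on day 7. The days overlapped, with the point estimate on the side of day 7 (log2 fold change 0.48 ± 0.31 SE; edgeR adjusted p = 0.231). WND1B (Potri.001G448400) was at 5.65, 24.0, 16.4 and 6.31 CPM on day 5 and at 1.20, 21.9, 3.43 and 1.45 CPM on day 7. Without replicate 2, its other 3 day 7 libraries lay below all of day 5. Its log2 fold change was -0.92 ± 0.81 (SE; edgeR adjusted p = 0.381), and -2.65 without that library (edgeR adjusted p = 0.00561).

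WND2A and WND2B were near the bottom of the range on both drought days. WND2A (Potri.014G104800) was at 0.942, 1.96, 1.43 and 0.846 CPM on day 5, and at 0.479, 2.15 and 1.96 CPM and no count on day 7 (log2 fold change -0.17 ± 0.67 SE; edgeR adjusted p = 0.851; -0.60 without day 7 replicate 2). WND2B (Potri.002G178700) went from 0.706, 0.905, 4.24 and 1.08 CPM to 0.638, 1.19, 0.613 and 0.323 CPM (log2 fold change -1.33 ± 0.57 SE; edgeR adjusted p = 0.0788; 0.0463 without day 5 replicate 1), and -0.38 without day 5 replicate 3, its highest library. DESeq2 called WND2B lower (adjusted p = 0.0419), and limma-voom did not (adjusted p = 0.189). For both WND2 genes the levels on days 5 and 7 were far under the day 0 means of 29.0 CPM for WND2A and 22.6 CPM for WND2B.

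Of the 8 vessel-type NAC genes 7 were tested and 2 fell, VND6-C1 and VND6-C2, beside 19.9% of all tested genes that were lower. VND6-C1 (Potri.007G014400) went from 52.8, 63.7, 65.5 and 23.1 CPM on day 5 to 14.6, 30.7, 17.3 and 13.7 CPM on day 7 (log2 fold change -1.43 ± 0.38 SE; edgeR adjusted p = 0.0119). Only replicate 2 of day 7 exceeded the lowest day 5 library. VND6-C2 (Potri.005G116800) went from 6.28, 9.05, 3.55 and 9.23 CPM to 1.44, 4.54, 0.675 and 0.888 CPM (log2 fold change -1.91 ± 0.55 SE; edgeR adjusted p = 0.0163; -2.81 without day 7 replicate 2). Here too replicate 2 was the 1 day 7 library above the lowest of day 5.

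The other VND6 genes had overlapping days and were not called. VND6-A1 (Potri.012G126500) ranged from 4.17 to 9.50 CPM on day 5 and from 3.35 to 16.2 CPM on day 7, with a log2 fold change of 0.13 ± 0.44 (SE), and VND6-A2 (Potri.015G127400) from 2.24 to 5.18 and from 1.68 to 8.04 CPM, with -0.08 ± 0.45. VND6-B1 (Potri.003G113000) had 19.5, 16.8, 6.98 and 22.3 CPM on day 5 and 7.34, 21.2, 9.75 and 7.10 CPM on day 7 (-0.53 ± 0.42 SE). VND6-B2 (Potri.001G120000) had 8.71, 6.74, 4.30 and 13.8 CPM and then 5.82, 22.0, 9.94 and 5.97 CPM (0.39 ± 0.45 SE). In all 4 of these genes day 7 replicate 2 was the highest library of its day, and without it the log2 fold changes were -0.52 for VND6-A1, -0.69 for VND6-A2, -1.01 for VND6-B1 (edgeR adjusted p = 0.0594) and -0.19 for VND6-B2, none of them called.

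VND7-1 (Potri.013G113100) was nearly silent on day 0, at 0.0506 CPM, and had 2.04, 1.31, 4.48 and 3.54 CPM on day 5 and 1.28, 0.0796, 0.307 and 2.18 CPM on day 7. Its log2 fold change of -1.57 ± 0.75 (SE) did not pass (edgeR adjusted p = 0.109), except without day 7 replicate 4 (-2.35; edgeR adjusted p = 0.0350) and by limma-voom (adjusted p = 0.0404). VND7-2 (Potri.019G083600) was removed by the low-count filter, with 9, 2, 22 and 6 counts on day 5 and 5, 3, 1 and 1 on day 7.

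Of the 4 second-tier MYB genes, which act downstream of the NAC switches, MYB2 and MYB21 fell. MYB21 (Potri.009G053900) was steady on day 5, at 8.56, 10.5, 9.59 and 9.69 CPM, and was at 1.12, 4.93, 0.981 and 0.968 CPM on day 7. No library overlapped, and the fall was 4.81-fold (log2 fold change -2.27 ± 0.54 SE; edgeR adjusted p = 0.00644; -3.21 without day 7 replicate 2). MYB2 (Potri.001G258700) went from 2.90, 1.51, 3.05 and 2.85 CPM to 0.399, 1.99, 0.613 and 0.646 CPM (log2 fold change -1.49 ± 0.49 SE; edgeR adjusted p = 0.0309). Leaving out day 5 replicate 1 (adjusted p = 0.0615), 3 (0.0673) or 4 (0.0626), or day 7 replicate 1 (0.0733), 3 (0.0849) or 4 (0.0688), ended the call for MYB2, whose day 7 replicate 2 lay above the lowest day 5 library, while the change was -2.18 without day 7 replicate 2.

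MYB3 and MYB20 were at low levels and were not called. MYB3 (Potri.001G267300) had 1.33, 4.42, 1.49 and 1.31 CPM on day 5 and 0.239, 2.63, 1.35 and 0.323 CPM on day 7 (log2 fold change -0.93 ± 0.66 SE; edgeR adjusted p = 0.275). MYB20 (Potri.009G061500) had 1.02, 1.86, 0.623 and 1.61 CPM and then 0.239, 2.63, 0.675 and 0.323 CPM (-0.41 ± 0.71 SE; edgeR adjusted p = 0.663). Replicate 2 was the highest day 7 library for both, and without it the log2 fold changes were -1.68 for MYB3 (edgeR adjusted p = 0.0607) and -1.57 for MYB20 (0.0637). For MYB3 day 5 replicate 2 was the highest library, without which its change was -0.28.

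**Figure D3:**
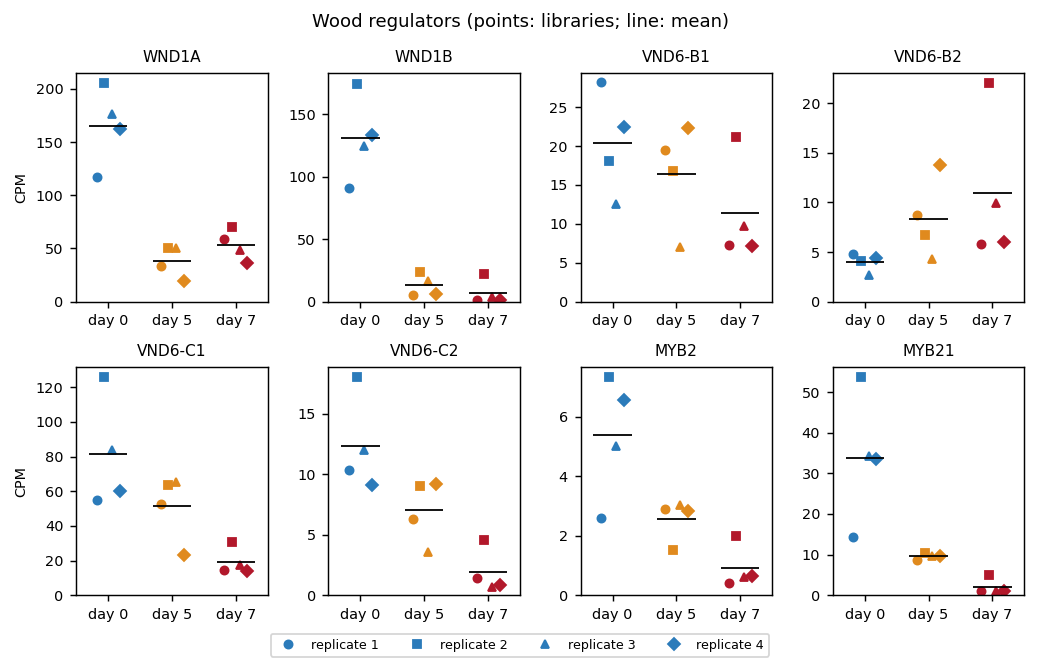
CPM in each library of days 0, 5 and 7 for 8 wood regulators on axes that start at 0, with replicates as symbols and the day's mean as a line. MYB21 and VND6-C2 are lower on day 7 than on day 5, whereas WND1A lies at 36.2 to 70.6 CPM on day 7 and 18.99 to 50.5 CPM on day 5; replicate 2 (square) is the highest day 7 library in every panel.

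Like-named copies were compared by their ratio. For 20 such pairs the log2 ratio of counts was compared between the days by a two-sided exact permutation test. In 5 pairs the days did not overlap and the exact p was 0.0286, the smallest that 4 against 4 libraries allow, which became 0.114 after adjustment over the 20 pairs, so none passed. The widest of these shifts was that of CCoAOMT1 against CCoAOMT2, whose log2 ratio was -1.48, -1.22, -1.49 and -1.96 on day 5 and 0.01, 0.47, 1.52 and -0.65 on day 7. This is a shift of 1.88, or 3.67-fold in favour of CCoAOMT1, and 1.83 without day 7 replicate 2. The others were CSE1 against CSE2 (-1.32), GAUT12-1 against GAUT12-2 (-0.90), VND6-B1 against VND6-B2 (-0.84) and MYB2 against MYB21 (0.95). For WND1A against WND1B the shift was 2.20 with overlapping days (exact permutation p = 0.0571, adjusted 0.163), and 2.95 without day 7 replicate 2. Only that library, at a log2 ratio of 1.69, lay within the day 5 range of 1.07 to 2.58. For CesA7-A against CesA7-B the shift was 0.10 (exact permutation p = 0.771).

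Across all tested genes the change between the 2 drought days was of similar size in both directions after TMM scaling. That scaling centres the bulk of genes near no change, so the balance is partly set by it. The 5995 genes that rose had a median log2 fold change of 1.02, or 2.03-fold, and the 5349 that fell one of -1.14, or 2.21-fold. By point estimate 1045 of the former and 1135 of the latter changed at least 4-fold, and 395 and 420 at least 8-fold. Against a minimum fold of 2, 968 genes (3.59%) were higher and 821 (3.05%) lower, of which 5 were wood synthesis genes. That total of 1789 was 1001 without day 7 replicate 3 and 1152 when only the 8 drought libraries were fitted. Complete switches were rare: 5 of the genes that rose had no count on day 5, and 14 of those that fell had no count on day 7, with only 4 and 2 of them reaching a mean of 1 CPM on the other day.

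Abundant genes were called more often than rare ones in the test without a minimum fold. Of the 1433 tested genes with a mean under 1 CPM over the 12 libraries 22.5% were called, against 46.5% of those at 20 to 100 CPM and 59.3% of the 150 at 500 CPM or more. Against a minimum fold of 2 the order differed. At 1 to 5 CPM 4.58% were higher and 3.99% lower, and at 20 to 100 CPM 2.93% and 2.14%. At 500 CPM or more 8% were higher and 4.67% lower. The standard error was widest in the lowest class (median 0.571, against 0.173 at 20 to 100 CPM and 0.325 at 500 CPM or more). In the top class 59 genes rose and 30 fell, while at 100 to 500 CPM 479 rose and 528 fell. By the chromosome number in the identifier, 34.3% (chromosome 19) to 46.3% (chromosome 10) of tested genes were called, and 36.2% of those on unplaced scaffolds. Along the identifiers there were 52 runs of at least 5 adjacent tested genes that all rose, the longest of 11, and 26 runs that all fell, the longest of 9.

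**Figure D4:**
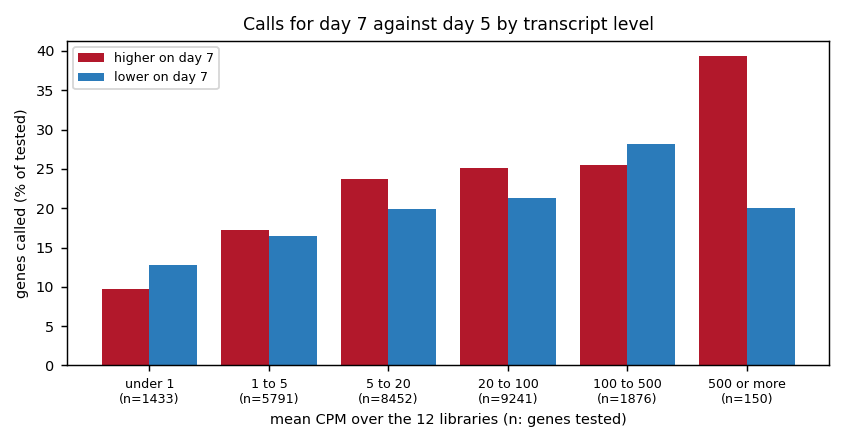
Percent of tested genes called higher (red) or lower (blue) on day 7 than on day 5, by mean CPM over the 12 libraries, with the number tested under each pair of bars. Calls of both directions together become more frequent with level. Lower calls alone go from 28.1% at 100 to 500 CPM to 20% at 500 CPM or more. Among the 150 genes of that top class 59 were higher and 30 lower.

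How far a library was concentrated on few genes was measured by its top genes. The 100 most abundant genes of each library held 11.7%, 10.02%, 10.7% and 11.02% of counts in day 5 replicates 1 to 4 and 14.7%, 14.8%, 17.4% and 14.7% in day 7 replicates 1 to 4. The day 7 libraries all lay above the day 5 libraries, by a mean of 4.56 percentage points (exact permutation p = 0.0286, which no split of 8 libraries can undercut, and 0.0571 when adjusted with the test of detected genes). At a common depth of 9.35 M counts, 31122 to 31646 genes had at least 1 count on day 5 and 29746 to 31399 on day 7. The mean difference of -775 genes was not called (exact permutation p = 0.0857), but was -1040 without day 7 replicate 1 (exact permutation p = 0.0286) and -489 without day 7 replicate 2 (exact permutation p = 0.143). The median SD of log2 CPM within a day was 0.291 on day 5 and 0.344 on day 7, and 0.288 on day 7 without replicate 2.

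**Figure D5:**
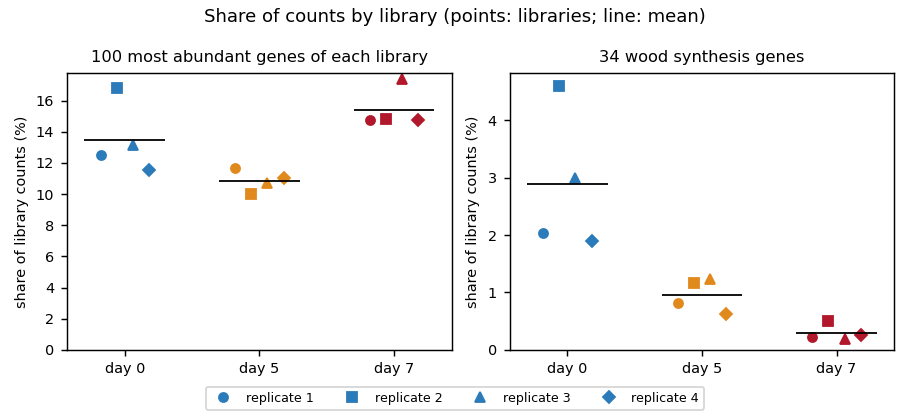
Percent of each library's counts held by its 100 most abundant genes (left) and by the 34 wood synthesis genes (right) on days 0, 5 and 7, with replicates as symbols and the day's mean as a line. On the left the day 7 libraries, at 14.7% to 17.4%, lie above the day 5 libraries, at 10.02% to 11.7%; on the right they lie below them, at 0.190% to 0.503% against 0.620% to 1.24%.

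Among non-overlapping genes past the 2-fold test, the largest differences in CPM belonged to genes that no table used here names. Potri.018G100200 rose in all 4 libraries, from 692, 825, 237 and 885 CPM on day 5 to 2015, 5156, 2141 and 4113 CPM on day 7, or 5.09-fold (log2 fold change 2.35 ± 0.44 SE; edgeR adjusted p = 0.00189). Potri.013G101000 was at 123, 155, 4.61 and 80.1 CPM on day 5 and at 2246, 2194, 4429 and 2009 CPM on day 7. It was low in all day 5 libraries, lowest in replicate 3, and highest in day 7 replicate 3. This gene rose 30.0-fold (log2 fold change 4.91 ± 1.01 SE, edgeR adjusted p = 0.00296), and its day 0 mean was 553 CPM ± 484 (SD, n = 4). The tested identifiers just before it rose too, by 5.81 and 10.5 on the log2 scale (edgeR adjusted p = 0.0124 and 0.00874). Those just after it fell, by -2.45 and -1.51. Whether reads are shared among these neighbours was not tested.

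Potri.010G089800 fell from 1628, 489, 1072 and 1111 CPM on day 5 to 178, 24.4, 40.9 and 269 CPM on day 7 (log2 fold change -3.07 ± 0.70 SE; edgeR adjusted p = 0.00510; -3.72 without day 7 replicate 4). On day 0 it had only 2.60 CPM ± 1.05 (SD, n = 4), so that day 7 still lay above the watered level. Potri.002G189000 went from 684, 1069.5, 1141 and 602 CPM to 154, 253, 102 and 171 CPM (log2 fold change -2.36 ± 0.42 SE; edgeR adjusted p = 0.00130), after 3811 CPM ± 2019.5 (SD, n = 4) on day 0. Its levels were nearly those of a gene 2 identifiers on, so shared reads are not excluded. In neither did the days overlap.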

How the data were processed

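The deposited table holds raw read counts per gene, whole numbers without normalisation, for 12 libraries. TopHat was used, per the submitters' processing notes. How reads were counted, on which genome build and with or without strand is not given in the sources used here, so reads of similar, overlapping or antisense genes may be shared. Of the tested genes 103 have counts identical to another's, none of them named in the report. The reference table matched 0 of 41335 identifiers.

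The test was that of edgeR 4.0.16 (R 4.3.3): filterByExpr (minimum count 10), TMM scaling, and a quasi-likelihood fit with 1 mean per day over all 12 libraries. Benjamini-Hochberg adjustment ran over all 26943 tested genes, with a threshold of 0.05; glmTreat tested a minimum fold of 2. Each SE is the log2 fold change divided by the root of the F statistic. Per-library values used exact permutation tests, and pair ratios a pseudocount of 0.5. Alternatives included DESeq2 1.42.0 and limma-voom (limma 3.58.1). Members and lists were chosen with earlier results of these data known; the pair ratios were added after the counts were seen. Members named are those of each list with the smallest adjusted p, all cellulose synthases and regulators, and the 2 unnamed genes per direction with the largest CPM difference among non-overlapping genes past the 2-fold test. A second set of unnamed genes in that rule, by smallest adjusted p, is not printed, to keep to 2 unnamed identifiers per direction. Lists by product name could not be used. The values of 1 monolignol gene are not reported here; it stays in the counts and medians of its lists. A share of counts planned for a test is given as values.

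On simulated counts for day 7 against day 5 (26621 genes, 100 changed 2-fold and 100 changed 4-fold), edgeR recovered 26% and 75% with 5 false calls, DESeq2 45% and 89% with 58, and limma-voom 24% and 69% with 5. Far fewer genes were changed there than the 42.1% called in the data. The adjustment depends on that share, so these rates need not hold for the data. Replicate numbers were not treated as pairs in the main fit, and whether they pair the libraries is not known.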

Additional observations from a re-analysis of the deposited data

Results flagged for a closer look

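In 100 groups of 4 libraries, 23 held a library whose gap to the nearest other exceeded 0.829 of the group's range. For normally distributed values about 1 group in 20 is expected to hold such a library by chance. CPM and shares were examined without taking logs, and the groups share libraries and correlated genes, so that rate need not hold here.

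Most were high values of day 7 replicate 2 in wood genes. It had 65.5 CPM of PAL4 (others 17.4 to 21.6), 35.7 of PAL5 (8.14 to 10.98) and 53.5 of C4H1 (14.7 to 19.3), 84.9 of CesA4 (17.97 to 27.8), 23.2 of CesA8-A (4.78 to 6.62), 93.0 of CesA7-B (15.5 to 18.6), 269 of CesA7-A (23.4 to 40.1) and 350.0 of CesA8-B (10.1 to 57.8). It also had 27.0 CPM of GT43B (3.31 to 4.23), 249.9 of SUS2 (71.4 to 89.0), 12.97 of CSE2 (8.96 to 9.44) and 21.9 of WND1B (1.20 to 3.43). Among the MYB genes it had 1.99 CPM of MYB2 (0.399 to 0.646) and 4.93 of MYB21 (0.968 to 1.12). Its cellulose synthase genes held 0.0785% of counts (others 0.00997% to 0.0111%), its xylan genes 0.00750% (0.00148% to 0.00214%) and its sucrose synthase genes 0.0244% (0.00772% to 0.00919%).

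The other libraries far from their day were fewer. Day 7 replicate 3 had 4429 CPM of Potri.013G101000 (others 2009 to 2246) and a share of 17.4% for its 100 most abundant genes (14.7% to 14.8%). On day 5, replicate 3 had 87.0 CPM of SUS1 (26.1 to 34.4) and 4.24 of WND2B (0.706 to 1.08), and replicate 2 had 4.42 CPM of MYB3 (1.31 to 1.49) and 1.51 of MYB2 (2.85 to 3.05).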

How the results depend on the processing

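The number of genes called between the days, 11344, was 10094 to 12632 under the alternatives that kept all day 5 and day 7 libraries and 9098 to 11682 when 1 was left out. Against a minimum fold of 2 the count of 1789 was 1152 with the 8 drought libraries alone and 1001 to 2321 when 1 library was left out. The 31 wood genes called lower were 30 to 35 with all libraries of both days kept and 27 to 35 with 1 left out. With the replicate block, 10757 genes and 35 wood genes were called. Deviations from the day's mean correlated between days 5 and 7 at 0.104, 0.487, -0.0671 and 0.0989 for replicates 1 to 4. Day 7 replicate 2 correlated best with its own number and the other day 7 libraries did not. These correlations cannot settle whether the numbers pair the libraries, since a low correlation does not exclude a shared block. Without 1 library the difference in detected genes was -1040 to -489, and that in the median SD was -0.0034 (without day 7 replicate 2) to 0.0982, against 0.0522.

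Among single genes, changes of sign were seen only where no call was made. Those of VND6-A1 were -0.0844 by limma-voom, -0.017 with the replicate block, and -0.52 to 0.38 without 1 library. Without 1 library, WND2A lay between -0.60 and 0.24, VND6-A2 between -0.69 and 0.17, and VND6-B2 between -0.19 and 0.73. Comparing each gene given with a value of its own with each alternative, direction and call were kept in 634 cases, the call was lost in 21 and gained in 21, and the sign changed in 12. The ratio of WND2A to WND2B shifted by 0.19 with a pseudocount of 2, against -0.18. VND7-2 had too few counts to be tested.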
